A study of Mus musculus with 15 samples.

Results

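The spleens of 3 male C57bl/10 mice killed 1 day after resection of 70% of the liver were compared with the spleens of 3 intact mice, which were not operated on. The 3 arrays labelled as day 1 after resection and the arrays of intact biological replicates 1 to 3 were taken, which makes 6 of the 15 arrays of the series, and each array holds RNA of the whole spleen of 1 mouse. The intact spleens are numbered 1 to 6 in the labels, and numbers 4 to 6 served here only as a further control set and for the estimate of the spread. Resection was performed by the Higgins and Anderson method under isoflurane, and day 1 refers to the first day after it. The study's sham-operated mice are not on these arrays, so that liver loss cannot be told apart from anaesthesia and laparotomy. The age of the mice is not given in the sources used here.

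The spleen filters blood in its red pulp, where macrophages remove aged erythrocytes, and holds B and T cells in its white pulp. In mice its red pulp also produces erythrocytes, granulocytes and platelets. Operative trauma releases glucocorticoids and cytokines of the interleukin 6 family. Glucocorticoids act through a receptor that switches on genes such as Tsc22d3, Fkbp5 and Per1, while the cytokines act through STAT3 on acute phase genes. Metallothioneins, small proteins that bind zinc and copper, respond to glucocorticoids and to zinc. Zinc acts on them through the factor MTF1 and short metal response elements near the transcription start.

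Mt1 and Mt2, whose levels on day 1 are given below, are neighbouring genes on chromosome 8. Their promoters, from 250 bases before to 50 bases after the start, are shown because both genes were among the 12 with the largest positive difference on day 1. Capitals mark each match to TGCNCNC on either strand. This pattern is broader than the core of the metal response element, TGCRCNC with A or G for R. The stretches TGCTCTC and GGGAGCA in Mt2 match only the broader pattern.
Mt1: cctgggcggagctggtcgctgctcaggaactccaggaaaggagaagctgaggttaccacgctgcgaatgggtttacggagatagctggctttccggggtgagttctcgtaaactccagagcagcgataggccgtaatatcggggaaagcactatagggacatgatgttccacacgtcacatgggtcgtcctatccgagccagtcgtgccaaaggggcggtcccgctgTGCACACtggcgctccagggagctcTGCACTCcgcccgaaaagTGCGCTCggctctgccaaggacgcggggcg
Mt2: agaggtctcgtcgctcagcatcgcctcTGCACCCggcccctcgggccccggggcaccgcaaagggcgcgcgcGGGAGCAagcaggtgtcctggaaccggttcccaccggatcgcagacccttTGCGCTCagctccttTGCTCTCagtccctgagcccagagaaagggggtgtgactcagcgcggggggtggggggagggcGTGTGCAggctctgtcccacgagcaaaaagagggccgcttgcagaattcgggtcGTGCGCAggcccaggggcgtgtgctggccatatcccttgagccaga
The Mt1 sequence (RefSeq, GRCm38.p6, chr8:94178839-94179138, plus strand) holds 3 matches, all on the plus strand, and the Mt2 sequence (chr8:94172368-94172667, plus strand) holds 6, of which 3 are on the plus and 3 on the minus strand. Of 32851 mouse promoters of the same 300 bases, 51% hold at least 1 match, 7.1% at least 3 and 0.225% at least 6. A match is a description of the letters and no sign that a factor binds there.

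Levels are the log2 values that the authors deposited after robust multi-array averaging (RMA), and a difference of 1.00 on this scale is a fold of 2. Array medians ran from 4.74 to 4.89 over all 15 arrays, and Pearson's r across features ran from 0.958 to 0.987 among the 6 arrays. Day 1 spleen 2 had the lowest values of r, 0.958 to 0.978, and intact spleen 3 was nearer to day 1 spleens 1 and 3 (0.987 and 0.984) than to intact spleens 1 and 2 (0.973 and 0.980). Without the features of the pancreatic acinar list and those that follow it, described below, the values of intact spleen 3 were 0.987 and 0.984 with these day 1 spleens and 0.981 and 0.985 with intact spleens 1 and 2, so that the order in part rested on acinar transcripts. Of the defining markers of the organ, the B cell receptor gene Cd79a differed by -0.05 on day 1, the T cell receptor gene Cd3e by 0.93, and the red pulp macrophage genes Adgre1, Spic and Cd5l by -0.44, 0.88 and 1.43. All 5 had signal above the array median on each of the 6 arrays. In whole tissue, fewer cells of a type and less RNA per cell cannot be told apart.

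In the comparison of day 1 with intact spleens 1 to 3, 0 of 22206 features (0%) passed limma's test at a Benjamini-Hochberg adjusted p under 0.05, and the smallest adjusted p was 0.467. At an unadjusted p under 0.05 there were 1577 features (7.1%), 994 higher (4.48%) and 583 lower (2.63%). The differences below are therefore sizes with standard errors and are not established for single genes after correction. For counts of genes, a fold change of 2 or more at an unadjusted p under 0.05 is used, the default of the Transcriptome Analysis Console, which the study ran at its default settings. By it, 320 features were higher on day 1 (1.44%) and 140 lower (0.63%). Each count of called genes below is to be read against these shares. Levels on the 3 day 1 arrays did not overlap with those on the 3 intact arrays in 1753 features that were higher (7.89%) and 1586 that were lower (7.14%). Over all features the median difference was 0.00, and 50.3% were higher.

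**Figure D1:**
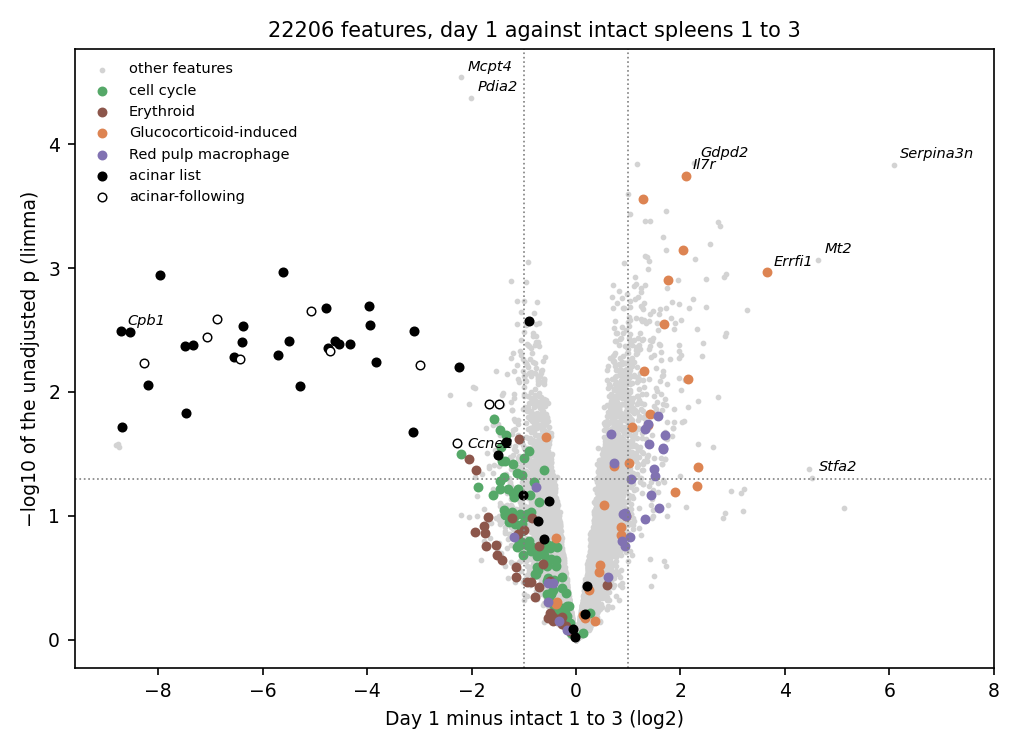
Each point is 1 of 22206 features, with the difference of day 1 minus intact spleens 1 to 3 (log2) on the x axis and −log10 of the unadjusted limma p on the y axis. Dotted lines mark a fold of 2 and p of 0.05. Acinar genes of the pancreas lie far to the left, most cell cycle and erythroid genes lie left of 0, and most glucocorticoid-induced and red pulp macrophage genes lie right of it.

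Serpina3n, an acute phase gene whose secreted product inhibits serine proteases of leukocytes, had the largest positive difference among features with a symbol. Its log2 level was 7.04, 7.04 and 7.05 in intact spleens 1 to 3 and 10.80, 16.01 and 12.57 in day 1 spleens 1 to 3. The intact arrays were nearly equal, every day 1 array was higher, and day 1 spleen 2 stood above both others. The difference was 6.08 ± 1.19 (SE, n = 3 against 3), a fold of 67.9 with a 95% interval on the log2 scale of 3.53 to 8.64, at an adjusted p of 0.582 from limma.

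Both widely expressed metallothionein genes were also higher. Mt2 had log2 levels of 10.29, 10.93 and 9.70 in intact spleens 1 to 3 and 12.09, 18.41 and 14.32 in day 1 spleens 1 to 3, and Mt1 had 14.31, 13.56 and 13.14 in intact spleens 1 to 3 and 15.18, 19.66 and 15.99 in day 1 spleens 1 to 3. No day 1 array overlapped with an intact one for either gene, and day 1 spleen 2 was again the highest, for Mt1 close to the upper end of the scale at 19.93. The differences were 4.63 ± 1.11 and 3.27 ± 0.88 (SE, adjusted p = 0.582 for both from limma). The other 5 measured genes of metallothioneins and zinc transporters did not follow them. Mt4, the metallothionein of stratified epithelium, differed by -0.72 ± 0.23 at a low level in this organ, and the zinc transporter gene Slc39a14 by 0.45 ± 0.39.

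A further 6 of the 12 genes with the largest positive differences were not of these families, and their groups did not overlap either. Errfi1, a feedback inhibitor of the EGF receptor, was at 6.67, 6.22 and 6.83 in intact spleens 1 to 3 and 8.33, 12.66 and 9.70 in day 1 spleens 1 to 3, a difference of 3.66 ± 0.90. Gpx3, the secreted glutathione peroxidase of plasma, was at 10.70, 10.62 and 10.90 in intact spleens 1 to 3 and 13.78, 13.91 and 13.18 in day 1 spleens 1 to 3. In Gpx3 the day 1 arrays lay close together, and its difference was 2.88 ± 0.82. Pik3ip1, an inhibitor of PI3 kinase in lymphocytes, differed by 2.87 ± 0.71, Pla2g7, which encodes the hydrolase of platelet-activating factor, by 2.86 ± 0.82, and Zfp36l2, which promotes mRNA decay, by 2.75 ± 0.61. Abca1, the exporter of cellular cholesterol, was at 8.79, 8.93 and 9.85 in intact spleens 1 to 3 and 11.64, 13.24 and 10.86 in day 1 spleens 1 to 3, a difference of 2.72 ± 0.60. The adjusted p of each of these was 0.582 from limma.

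**Figure D2:**
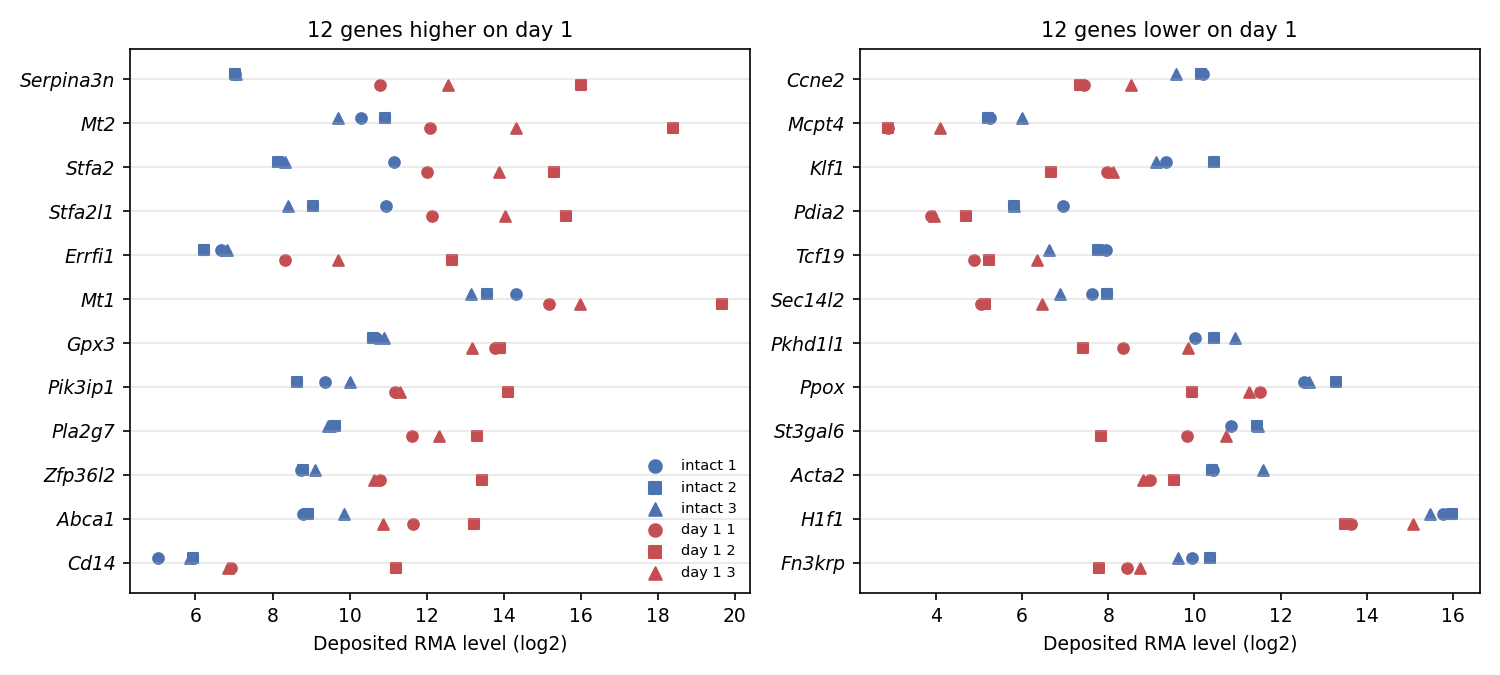
Log2 levels of the 12 named genes with the largest positive (left) and negative (right) differences on day 1, with blue for intact spleens 1 to 3, red for day 1 spleens 1 to 3 and a symbol shape for the replicate number. Groups do not overlap in any of the 24 genes, which was part of the rule that chose them, and the red square of day 1 spleen 2 is the rightmost point for most genes of the left panel.

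Smallest p values did not all belong to the largest differences. Mcpt4, a chymase of connective tissue mast cells, had the smallest of all features, at an adjusted p of 0.467 from limma. Its level was 5.24, 5.22 and 6.01 in intact spleens 1 to 3 and 2.89, 2.89 and 4.10 in day 1 spleens 1 to 3, lower on every day 1 array, with a difference of -2.20 ± 0.37. In intact spleens 4 to 6 its mean was 2.83, below that of day 1, so that the direction of Mcpt4 depended on the control set. Gdpd2, which encodes a glycerophosphodiester phosphodiesterase, was at 7.82, 9.03 and 8.92 in intact spleens 1 to 3 and 10.72, 10.67 and 11.16 in day 1 spleens 1 to 3, a difference of 2.26 ± 0.44. Il7r, the interleukin 7 receptor, was at 10.79, 9.44 and 11.06 in intact spleens 1 to 3 and 12.99, 12.63 and 12.01 in day 1 spleens 1 to 3, a difference of 2.11 ± 0.42. Pdk1, a kinase that inhibits pyruvate dehydrogenase, differed by 1.17 ± 0.23, and its mean in intact spleens 4 to 6 was 8.68 against 8.24 on day 1.

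Genes that glucocorticoids induce were mostly higher on day 1. Of 30 measured, 26 were higher and 4 lower, the median difference was 0.99 against 0.00 over all features, and 13 were at least 2-fold higher at an unadjusted p under 0.05, against 1.44% of all features. Tsc22d3, which encodes the glucocorticoid-induced leucine zipper, was at 9.38, 9.12 and 9.43 in intact spleens 1 to 3 and 10.29, 12.73 and 11.05 in day 1 spleens 1 to 3, a difference of 2.05 ± 0.48. Pdk4, a further kinase of pyruvate dehydrogenase, was at 3.99, 3.96 and 3.87 in intact spleens 1 to 3 and 4.90, 5.96 and 4.79 in day 1 spleens 1 to 3. The groups did not overlap in Tsc22d3 or Pdk4, and day 1 spleen 2 was highest in both. Among members chosen after their values were seen, Fkbp5, a co-chaperone of the glucocorticoid receptor, differed by 2.33 ± 1.04, the transcription factor gene Klf9 by 2.15 ± 0.70, and Ddit4, an inhibitor of mTORC1, by 1.76 ± 0.44. Nfkbia, which encodes the NF-kB inhibitor IkBa, was at 10.12, 10.03 and 10.93 in intact spleens 1 to 3 and 11.43, 12.70 and 11.19 in day 1 spleens 1 to 3 and differed by 1.41 ± 0.51. Per1, a clock gene with a glucocorticoid response, was at 6.14, 5.28 and 5.45 in intact spleens 1 to 3 and 5.57, 8.31 and 7.12 in day 1 spleens 1 to 3, and here the groups overlapped. The median of the list over its members, taken as deviation from the mean of intact spleens 1 to 3, was 0.09, -0.17 and -0.06 in these and 0.34, 1.84 and 0.64 in day 1 spleens 1 to 3. Without day 1 spleen 2 the median difference was 0.53, with 27 of 30 higher and 5 at least 2-fold higher. Of 18 measured genes of the circadian clock, 13 were higher and 5 lower with a median of 0.15, and only Per1 was called.

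Acute phase genes and targets of STAT3 gave a similar count. Of 28 measured, 24 were higher, with a median of 0.64, and 7 were at least 2-fold higher at an unadjusted p under 0.05, against 1.44% of all features. Besides Serpina3n these included Timp1, an inhibitor of metalloproteinases, at 3.33, 3.31 and 3.26 in intact spleens 1 to 3 and 3.66, 5.67 and 4.60 in day 1 spleens 1 to 3, a difference of 1.34 ± 0.37, and the kinase gene Pim1 with 1.19 ± 0.44. Timp1 was below the array median in all but day 1 spleen 2. Cd14, the coreceptor for lipopolysaccharide, was at 5.03, 5.95 and 5.85 in intact spleens 1 to 3 and 6.93, 11.20 and 6.85 in day 1 spleens 1 to 3, so that its difference of 2.71 ± 0.93 came for the most part from day 1 spleen 2. The serum amyloid gene Saa3, chosen after its values were seen, was at 5.26, 6.25 and 6.02 in intact spleens 1 to 3 and 6.42, 13.07 and 7.73 in day 1 spleens 1 to 3 and was not called. Without day 1 spleen 2 the median of the list was 0.34, with 23 of 28 higher and 1 called. Of 29 measured genes of the response to lipopolysaccharide and NF-kB, 20 were higher (median 0.25). The 4 called, against 1.44% of all features, were Cd14, Nfkbia, Irak3 and Tnfaip3, of which the last 3 encode inhibitors of this pathway. Tnfaip3 was at 8.39, 8.15 and 8.46 in intact spleens 1 to 3 and 9.50, 11.70 and 8.94 in day 1 spleens 1 to 3, a difference of 1.71 ± 0.59, and Irak3 differed by 1.28 ± 0.56. The list had a median of 0.10 and 0 called without day 1 spleen 2, 2 called without intact spleen 2 and a median of 0.42 with 8 called without day 1 spleen 3. The cytokine genes Il6 and Tnf, chosen after their values were seen, differed by -0.33 ± 0.27 and -0.43 ± 0.31. Immediate early genes did not move together, with 15 of 26 higher and a median of 0.04. Myc, which drives cell growth, was higher on every day 1 array, at 9.81, 9.39 and 9.61 in intact spleens 1 to 3 and 10.45, 10.83 and 10.55 in day 1 spleens 1 to 3.

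Stefins are inhibitors of cysteine proteases such as cathepsins, and the mouse genome holds a cluster of nearly identical stefin A genes on chromosome 16 that neutrophils and their precursors express. Of 12 measured stefin and cystatin genes, 11 were higher on day 1, with a median of 2.47. Of them 2 were called, against 1.44% of all features. Stfa2 was at 11.14, 8.15 and 8.32 in intact spleens 1 to 3 and 12.02, 15.31 and 13.88 in day 1 spleens 1 to 3, and Stfa2l1 at 10.95, 9.05 and 8.40 in intact spleens 1 to 3 and 12.14, 15.62 and 14.02 in day 1 spleens 1 to 3. In both, intact spleen 1 lay above the other intact spleens and nearer to day 1 spleen 1 than to them. Their differences were 4.53 ± 2.11 and 4.46 ± 2.00 (SE, adjusted p = 0.703 and 0.691 from limma), and neither was called when intact spleen 2 or 3 or day 1 spleen 2 or 3 was left out. Cstdc5 and Cstdc6 differed by 3.16 ± 1.59 and 2.98 ± 1.48. Since these copies share sequence, their probes may not separate them, and they do not count as independent. The means of Stfa2 and Stfa2l1 in intact spleens 4 to 6 were 3.70 and 5.17, lower than in each of intact spleens 1 to 3. That of Serpina1b, an antitrypsin gene, was 2.58, against 7.12 in intact spleens 1 to 3 and 7.75 on day 1. The stefins and Serpina3n are protease inhibitor genes that the study named, and the fourth, Serpina1b, differed by 0.63 ± 0.27, so their direction is no independent evidence.

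Genes of mature neutrophils were higher in 22 of 26 cases (median 0.66), and 4 were called, against 1.44% of all features. Ifitm1 and Ifitm2 encode membrane proteins that block viral entry, and Ifitm2 was at 12.83, 12.30 and 12.03 in intact spleens 1 to 3 and 14.02, 15.17 and 14.05 in day 1 spleens 1 to 3. Their differences were 2.34 ± 0.94 and 2.03 ± 0.76, and neither overlapped between the groups. The differences were 2.61 ± 1.07 for Wfdc17, a small secreted protein of myeloid cells, and 1.71 ± 0.66 for the chemokine gene Ccl6. The median of the list was 0.67, -0.49 and -0.26 in intact spleens 1 to 3 and -0.05, 1.55 and 0.94 on day 1, so that intact spleen 1 lay above day 1 spleen 1, and without day 1 spleen 2 no member was called. Granule genes of neutrophil precursors were near balance, which depended on single intact arrays. For primary granules, 8 of 15 were higher (median 0.11), and for secondary and tertiary granules 10 of 18 with 0.24. Without intact spleen 1, 12 of 15 and 14 of 18 were higher (medians 0.38 and 0.45). Without intact spleen 2, 5 and 6 were higher (medians -0.34 and -0.23). Among secondary and tertiary granule genes, the lactoferrin gene Ltf and the cathelicidin gene Camp had differences of -1.64 ± 0.94 and -1.48 ± 0.84. Both were highest in intact spleen 1, at 13.33 and 14.02. Tcn2, a carrier of vitamin B12 that is not specific to neutrophil granules, was the only member of this list called, higher with 2.09 ± 0.68.

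**Figure D3:**
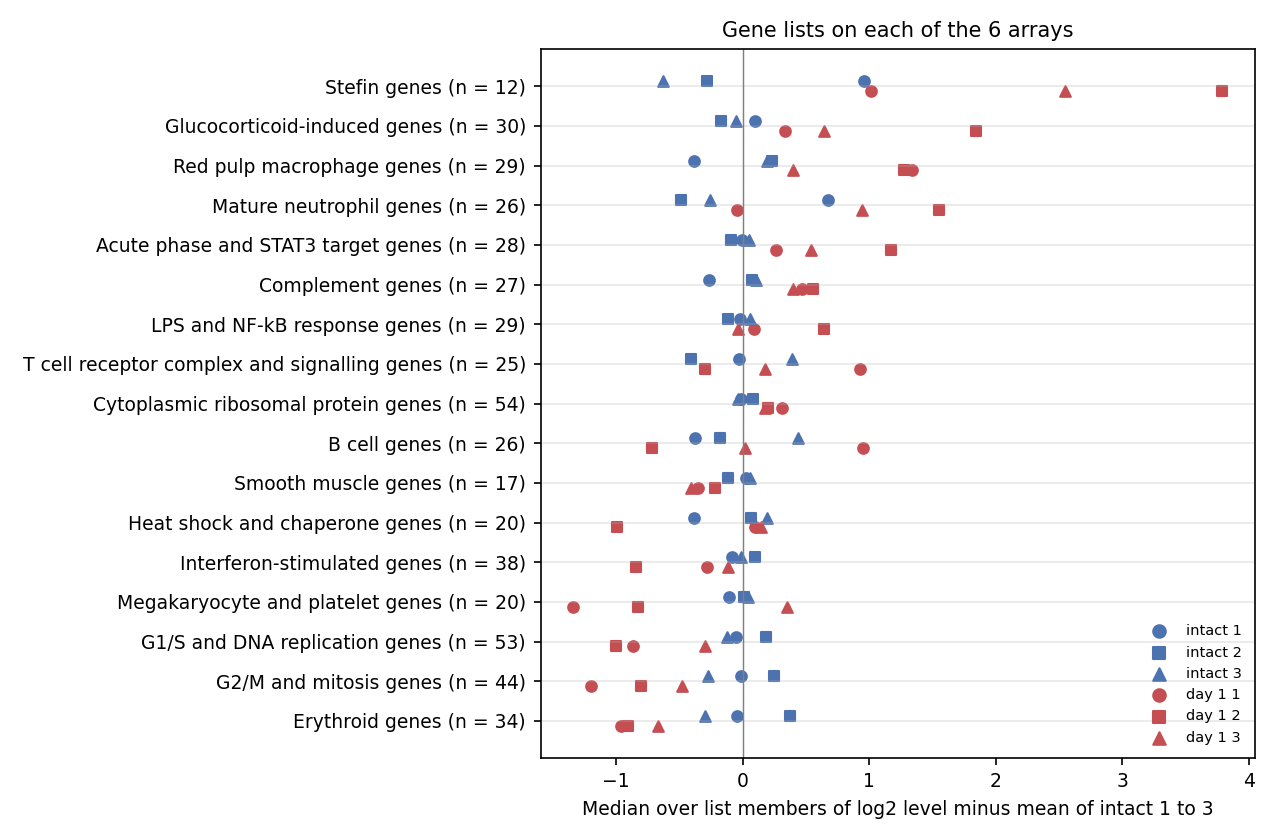
For 17 gene lists, each point is the median over the members of the log2 level minus the mean of intact spleens 1 to 3, on 1 of the 6 arrays (blue intact, red day 1, shape for the replicate number). All red points of the glucocorticoid, acute phase and complement lists lie right of all blue points, all red points of both cell cycle lists and of the erythroid list lie left of them, and for the stefin, neutrophil and lymphocyte lists the colours overlap or nearly so.

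Red pulp macrophage genes were higher in 22 of 29 cases on day 1, with a median of 0.96, and 9 were called, against 1.44% of all features. Slc11a1, a metal transporter of phagosomes, was at 7.66, 8.87 and 8.70 in intact spleens 1 to 3 and 10.49, 9.86 and 9.56 in day 1 spleens 1 to 3, a difference of 1.56 ± 0.57. Mertk, a receptor for dying cells, was at 8.16, 7.62 and 8.16 in intact spleens 1 to 3 and 9.60, 9.26 and 9.23 in day 1 spleens 1 to 3, a difference of 1.38 ± 0.52. Neither overlapped between the groups. Csf1r, which encodes CD115, the receptor that macrophages need for survival, was at 12.16, 12.95 and 12.58 in intact spleens 1 to 3 and 14.57, 14.30 and 13.37 in day 1 spleens 1 to 3 and differed by 1.52 ± 0.70 (adjusted p = 0.703 from limma). Among markers used by the study for staining or sorting, Cd163, Mrc1 (CD206) and Cd86 differed by 0.96 ± 0.55, 1.32 ± 0.77 and 1.22 ± 0.35, and only Cd86 of these was called. Adgre1, a marker of mature macrophages, went the other way with -0.44 ± 0.45, and so did Ly6c2, a marker of inflammatory monocytes, at 13.98, 13.55 and 13.58 in intact spleens 1 to 3 and 12.99, 12.22 and 12.26 in day 1 spleens 1 to 3, a difference of -1.22 ± 0.44. The mean of Ly6c2 in intact spleens 4 to 6 was 12.34, below the 12.49 of day 1, so that its direction turned with the control set. The array medians of the list were -0.38, 0.23 and 0.19 in intact spleens 1 to 3 and 1.34, 1.28 and 0.39 on day 1, where day 1 spleen 3 was close to the intact spleens. The median stayed between 0.74 and 1.32 when any 1 array was left out, but the number called ran from 1 without intact spleen 1 and 2 without day 1 spleen 1 to 13 without day 1 spleen 3. Of 24 measured monocyte genes, 13 were higher and 11 lower (median 0.04). Besides Csf1r, Vcan and Ms4a6d were called higher with 1.55 ± 0.43 and 1.16 ± 0.44, against 1.44% of all features. Ly6c2, a member of the same list, was called lower, against 0.63%. Marginal zone macrophage genes were higher in 8 of 13 cases and genes of macrophage polarization in 12 of 21, with medians of 0.31 and 0.26.

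Complement genes were higher in 20 of 27 cases (median 0.41), and 4 were called, against 1.44% of all features. Without intact spleen 1 or day 1 spleen 2, 0 were called. The C1q complex starts the classical pathway, and its chains C1qa, C1qb and C1qc are made by macrophages, so that 2 of them counted among the called macrophage genes as well. C1qb was at 7.12, 8.06 and 7.65 in intact spleens 1 to 3 and 9.67, 10.07 and 7.58 in day 1 spleens 1 to 3, and C1qc was at 7.72, 9.04 and 9.01 in intact spleens 1 to 3 and 10.14, 10.61 and 8.98 in day 1 spleens 1 to 3. In both, day 1 spleens 1 and 2 were above all intact spleens and day 1 spleen 3 was not. The differences of C1qa, C1qb and C1qc were 1.06 ± 0.50, 1.49 ± 0.67 and 1.32 ± 0.51. Cfp, properdin of the alternative pathway, was higher on all day 1 arrays, at 11.11, 10.88 and 10.79 in intact spleens 1 to 3 and 12.42, 12.49 and 11.78 in day 1 spleens 1 to 3, with a difference of 1.31 ± 0.56. C7, of the membrane attack complex, differed by 1.03 ± 0.41. Of the 7 members that were lower, Vsig4 had the smallest p of the whole list and was not called. It was at 3.82, 4.71 and 3.79 in intact spleens 1 to 3 and 3.30, 3.33 and 3.32 in day 1 spleens 1 to 3. Its difference was -0.79 ± 0.28 without overlap, at levels below the array median. The complement and coagulation genes that the study named on these samples, C1qa, C1qb, C6, Serping1 and Tfpi, were all higher, by 1.01 to 1.59, with 2 called. C6 differed by 1.59 ± 0.86, Serping1, the inhibitor of C1, by 1.01 ± 0.55, and Tfpi, the inhibitor of tissue factor, by 1.05 ± 0.45. The wider list of coagulation and fibrinolysis genes was in balance, with 16 of 32 higher and a median of 0.01, and Tfpi was the called member.

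Chemokine and receptor genes showed no common direction, with 30 of 56 higher and a median of 0.04. Ccl9, which attracts myeloid cells, was at 6.90, 7.47 and 7.10 in intact spleens 1 to 3 and 7.51, 10.50 and 9.39 in day 1 spleens 1 to 3, a difference of 1.97 ± 0.60. Ackr3, a scavenger receptor for Cxcl12, was at 3.00, 3.46 and 3.99 in intact spleens 1 to 3 and 4.86, 6.31 and 4.72 in day 1 spleens 1 to 3, a difference of 1.81 ± 0.50. Xcr1, the receptor of cross-presenting dendritic cells, was at 5.69, 5.73 and 6.09 in intact spleens 1 to 3 and 5.44, 3.48 and 4.31 in day 1 spleens 1 to 3, lower on every day 1 array, with -1.43 ± 0.49. Cxcl12, a chemokine of stromal cells, was at 12.59, 13.35 and 14.20 in intact spleens 1 to 3 and 15.23, 14.86 and 14.37 in day 1 spleens 1 to 3 and differed by 1.44 ± 0.69. Ccl21a and Ccl21c, nearly identical copies of the chemokine that guides T cells into the white pulp, differed by 1.64 ± 0.70 and 1.65 ± 0.72, and cannot be taken as separate measurements. The 8 measured genes that the study named for chemokine pathways were all higher with 6 called, against 1.44% of all features. They were picked on these samples and give no independent evidence. Of these, the signalling genes Pik3cg and Prkacb differed by 1.17 ± 0.52 and 0.84 ± 0.35.

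Lymphocyte genes split between the day 1 spleens. Of 26 measured B cell genes 14 were higher and 12 lower (median 0.01), and the array medians were -0.38, -0.18 and 0.44 in intact spleens and 0.95, -0.72 and 0.02 on day 1. Day 1 spleens 1 and 2 thus lay on either side of the intact ones. Pou2af1, a coactivator of B cell transcription, was the called member, at 6.95, 8.24 and 8.56 in intact spleens 1 to 3 and 10.21, 9.32 and 9.93 in day 1 spleens 1 to 3, a difference of 1.90 ± 0.53, while the low-affinity IgE receptor gene Fcer2a differed by -0.72 ± 0.43. Without day 1 spleen 2, 23 of 26 B cell genes were higher and the median was 0.46, and without day 1 spleen 1, 4 were higher with a median of -0.50. Of 25 genes of T cell receptor signalling 19 were higher (median 0.26), with array medians of -0.03, -0.41 and 0.39 in intact and 0.92, -0.30 and 0.18 in day 1 spleens. Its direction depended on the controls, since the median was -0.22 against all 6 intact spleens and -0.07 against intact spleen 3 alone. Ctla4, an inhibitory receptor of regulatory and activated T cells, was at 4.37, 4.67 and 4.87 in intact spleens 1 to 3 and 5.73, 9.18 and 5.44 in day 1 spleens 1 to 3, and day 1 spleen 2 carried most of its difference of 2.14 ± 0.76. Cd3e, Cd4 and Cd8a differed by 0.93 ± 0.53, 0.61 ± 0.49 and 0.54 ± 0.60, and the day 1 means of Cd4 and Cd8a (8.17 and 8.73) lay below those of intact spleens 4 to 6 (8.23 and 10.91). Among genes of naive T cells and lymphocyte traffic, 13 of 19 were higher (median 0.24). Il7r, Satb1 and Lef1 were called, against 1.44% of all features. This direction depended on the controls too, with a median of -0.02, 9 of 19 higher and 1 called against all 6 intact spleens and a median of -0.12 against intact spleen 3 alone, and 1 was called without intact spleen 2 or day 1 spleen 1. Satb1, a chromatin organiser of T cells, differed by 1.55 ± 0.54 and Lef1, a transcription factor of Wnt signalling, by 1.11 ± 0.40. The overall leukocyte marker Ptprc differed by 0.23 ± 0.68.

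Genes of the cell cycle were lower on day 1. In the list for DNA replication and the G1/S transition, 52 of 53 measured members were lower, with a median of -0.69 against 0.00 over all features, 7 were at least 2-fold lower at an unadjusted p under 0.05, against 0.63% of all features, and 22 did not overlap between the groups, against 7.14%. Ccne2, which encodes cyclin E2 and drives entry into S phase, was at 10.19, 10.16 and 9.58 in intact spleens 1 to 3 and 7.45, 7.35 and 8.53 in day 1 spleens 1 to 3, the largest negative difference outside the acinar transcripts among genes without overlap, with -2.20 ± 0.93. Prim1, the primase of DNA replication, was at 11.56, 11.94 and 11.87 in intact spleens 1 to 3 and 10.52, 9.04 and 11.09 in day 1 spleens 1 to 3, a difference of -1.58 ± 0.58. Pcna, the sliding clamp of the replication fork, was at 18.06, 18.47 and 18.13 in intact spleens 1 to 3 and 16.88, 15.99 and 17.49 in day 1 spleens 1 to 3, a difference of -1.44 ± 0.59. In all of Ccne2, Prim1 and Pcna every day 1 spleen was below every intact spleen, and day 1 spleen 3 was the nearest to them. The array medians were -0.05, 0.18 and -0.12 in intact spleens 1 to 3 and -0.87, -1.01 and -0.30 on day 1.

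Genes of G2/M and mitosis were lower in 43 of 44 cases, with a median of -0.84, 5 called (0.63% of all features) and 24 without overlap (7.14%). Hmmr, a spindle protein, was at 9.69, 10.26 and 9.51 in intact spleens 1 to 3 and 7.94, 8.30 and 8.86 in day 1 spleens 1 to 3, a difference of -1.45 ± 0.56. Aurka, the kinase of spindle poles, differed by -1.41 ± 0.61, and Cdca8, of the chromosomal passenger complex, by -1.34 ± 0.52. The others called were Bub1 and Ckap2l. Mki67, which encodes Ki-67, lay between 18.8 and 19.6 on all 6 arrays, close to the upper end of the scale, and differed by -0.40 ± 0.67. For at least 4 of the 44 genes the direction turned with the control set, since their means in intact spleens 4 to 6 lay below those of day 1. These means were 7.83 against 8.37 for Hmmr, 6.57 against 7.64 for Ckap2l, 18.86 against 19.18 for Mki67 and, for the cyclin gene Ccnb2, 11.98 against 12.22. For most other members the mean in intact spleens 4 to 6 is not given here, so that more may turn. The array medians were -0.02, 0.25 and -0.27 in intact spleens and -1.20, -0.80 and -0.48 on day 1. The 8 cell cycle genes that the study named, which were chosen on these samples and are no independent evidence, were all lower, from -1.06 to -2.20, with Ccne2, Mcm2 and Rbl1 called. The cyclin genes Ccne1, Ccna2 and Ccnb2 differed by -1.87 ± 0.91, -1.13 ± 0.80 and -1.06 ± 0.65, the helicase gene Mcm2 by -1.38 ± 0.64, and Cdc6, which loads it, by -1.59 ± 0.80. Plk1 and Rbl1 differed by -1.19 ± 0.69 and -1.14 ± 0.52. Tcf19, a gene of the G1/S transition, and H1f1, a linker histone, were among the 12 with the largest negative difference as well, with -1.97 ± 0.65 and -1.67 ± 0.74. Against intact spleen 3 alone the medians of both lists were -0.43 and -0.54, with 46 of 53 and 39 of 44 members lower and 0 called, and without day 1 spleen 2 they were -0.51 and -0.83. When single arrays were left out the number of G1/S genes called ran from 0 without day 1 spleen 2 to 16 without day 1 spleen 3, with 1 without intact spleen 2 and 3 without intact spleen 1 or day 1 spleen 1. For G2/M it ran from 0 without intact spleen 2 to 7 without day 1 spleen 3, with 1 without day 1 spleen 1 and 2 without intact spleen 1 or day 1 spleen 2. Against all 6 intact spleens the medians were -0.59 and -0.52 with 2 and 1 called, and in a fit of the 6 arrays alone 17 and 19 were called.

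Erythroid genes were lower in 33 of 34 cases (median -0.90), with 3 called and 18 without overlap, against 0.63% and 7.14% of all features. Klf1, the transcription factor of erythroid maturation, was at 9.33, 10.46 and 9.11 in intact spleens 1 to 3 and 7.96, 6.66 and 8.11 in day 1 spleens 1 to 3, a difference of -2.05 ± 0.88. Gata1, the master factor of erythroid cells and megakaryocytes, was at 7.93, 8.68 and 7.84 in intact spleens 1 to 3 and 7.15, 6.65 and 7.36 in day 1 spleens 1 to 3, a difference of -1.09 ± 0.43. Ppox, an enzyme of haem synthesis, was at 12.55, 13.29 and 12.65 in intact spleens 1 to 3 and 11.52, 9.94 and 11.26 in day 1 spleens 1 to 3, a difference of -1.92 ± 0.87. All 3 were lower on each day 1 array than on any intact array. Tfrc, the transferrin receptor that takes up iron, was at 15.30, 15.64 and 15.23 in intact spleens 1 to 3 and 13.66, 13.30 and 14.13 in day 1 spleens 1 to 3, also without overlap, but its difference of -1.69 ± 0.97 had an adjusted p of 0.765 from limma and was not called. The list overlaps in cell types with the cell cycle lists, since erythroblasts divide, and their part in each other was not tested. Array medians were -0.05, 0.37 and -0.30 in intact spleens and -0.96, -0.90 and -0.67 on day 1. The median was -0.62 against intact spleen 3 alone, -0.64 against all 6 intact spleens and -0.93 without day 1 spleen 2. No erythroid gene was called without day 1 spleen 2, without intact spleen 2 or against intact spleen 3 alone, 2 were without intact spleen 1 or 3, and 15 were in the fit of the 6 arrays alone. Megakaryocyte and platelet genes were lower in 17 of 20 cases (median -0.51), but day 1 spleen 3 lay above the intact spleens (-1.34, -0.83 and 0.35 on day 1). Mmrn1, multimerin of platelet granules, was the called member with -1.58 ± 0.60. Against all 6 intact spleens this list was in balance, with 10 higher, 10 lower, a median of -0.02 and 0 called, and its median was -0.25 without day 1 spleen 1 and -1.04 with 5 called without day 1 spleen 3. Of 18 measured genes of haematopoietic progenitors, 10 were higher (median 0.06), and Kit, the receptor for stem cell factor, and Cd34 were called higher with 1.29 ± 0.34 and 1.27 ± 0.53.

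Interferon-stimulated genes were lower in 31 of 38 cases (median -0.36), with 2 called and 11 without overlap, against 0.63% and 7.14% of all features. Usp18, which removes the ubiquitin-like protein ISG15, was at 7.80, 8.47 and 7.39 in intact spleens 1 to 3 and 6.89, 5.85 and 7.28 in day 1 spleens 1 to 3, a difference of -1.21 ± 0.47. Iigp1, a GTPase against intracellular pathogens, differed by -1.11 ± 0.41, the antiviral gene Ifit3 by -0.98 ± 0.32, and Irf9, of the interferon-activated factor, by -0.87 ± 0.30. The array medians on day 1 were -0.28, -0.84 and -0.12, and without day 1 spleen 2 the median difference was -0.18 with 0 called, while 5 were called without day 1 spleen 1 and 6 without day 1 spleen 3. Heat shock and chaperone genes were lower in 16 of 20 cases (median -0.32), with array medians of 0.10, -0.99 and 0.15 on day 1. The negative median of the list thus rested on day 1 spleen 2, and without it the median was above 0, at 0.19. This did not hold for every member. The chaperone gene Dnajb1, with -1.43 ± 0.70, and Hspa1a were the 2 members lower on each day 1 array than on any intact array, and neither was called. Hsp90aa1, the inducible HSP90, was the called member with -1.72 ± 0.66 and was lowest in day 1 spleen 2. Hspa1a and Hspa1b, nearly identical genes of HSP70, differed by -0.67 ± 0.35 and -0.85 ± 0.43. Genes of cytoplasmic ribosomal proteins were higher in 47 of 54 cases, by a small median of 0.21, with 0 called and 11 without overlap, against 7.89% of all features. Rpl32 and Rpl3 differed by 0.71 ± 0.22 and 0.66 ± 0.20, and the mean of Rpl3 in intact spleens 4 to 6 was 14.99 against 14.88 on day 1. Of 44 genes of mRNA processing, 15 were higher (median -0.05) and 1, Srsf5, called higher with 1.05 ± 0.40.

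Among stromal genes, Acta2, the actin of smooth muscle, was at 10.43, 10.40 and 11.59 in intact spleens 1 to 3 and 8.96, 9.53 and 8.81 in day 1 spleens 1 to 3, lower on each day 1 array, with -1.70 ± 0.71, and Tpm2, a tropomyosin, differed by -1.21 ± 0.36. Smooth muscle genes were lower in 12 of 17 cases (median -0.18), and these 2 were called, against 0.63% of all features. Endothelial genes were higher in 20 of 27 cases (median 0.18). Stab2, a scavenger receptor of sinus endothelium, was at 7.92, 7.70 and 8.04 in intact spleens 1 to 3 and 8.86, 10.14 and 8.88 in day 1 spleens 1 to 3, and Cdh5, VE-cadherin, differed by 1.17 ± 0.46. Genes of collagen and matrix were higher in 26 of 36 cases (median 0.20). Mmp14, a membrane-bound metalloproteinase, was at 4.30, 5.27 and 4.94 in intact spleens 1 to 3 and 5.59, 6.70 and 5.96 in day 1 spleens 1 to 3, a difference of 1.25 ± 0.33. Of the 10 lower members, Col14a1 differed by -0.79 ± 0.31 without overlap and Vtn by -0.75 ± 0.30, and neither was called. Their r with the mean of the acinar genes, described below, was 0.738 and 0.726. Among mesothelial genes of the capsule, 8 of 16 were higher with a median of 0.00. Prg4, lubricin, was called higher with 1.64 ± 0.50 and Igfbp5, which binds insulin-like growth factors, was called lower with -1.13 ± 0.30. Of the remaining genes with the largest negative differences, Sec14l2 differed by -1.94 ± 0.65, Pkhd1l1 by -1.93 ± 0.90, the sialyltransferase gene St3gal6 by -1.80 ± 0.83 and Fn3krp by -1.66 ± 0.74.

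Transcripts of pancreatic acinar cells stood apart on intact spleens 1 and 2. The pancreas lies against the spleen, and its acinar cells make the digestive enzymes. Over 37 measured acinar genes the mean log2 level was 11.2, 9.41 and 4.32 in intact spleens 1 to 3 and 4.94, 3.68 and 3.74 in day 1 spleens 1 to 3. In intact spleens 4 to 6 it was 5.10, 3.68 and 3.92. Cpb1, carboxypeptidase B, was at 18.60, 15.76 and 5.01 in intact spleens 1 to 3 and 5.58, 4.12 and 3.52 in day 1 spleens 1 to 3. Amy2a5, pancreatic amylase, was at 19.93, 19.83 and 11.32 in intact spleens 1 to 3 and 13.49, 5.65 and 5.85 in day 1 spleens 1 to 3, where intact spleen 1 had reached the upper end of the scale. Cpa1, Ctrb1, Clps and Prss2, which encode carboxypeptidase A, chymotrypsinogen, colipase and trypsinogen, differed by -8.54, -8.20, -7.97 and -7.49. For 5 of these 6 genes intact spleen 3 lay within the range of the day 1 spleens, and for Clps just above it. Of the 140 features called lower on day 1, 28 were genes of this list and 10 more followed its mean over the 15 arrays with r of at least 0.9, among them 2210010C04Rik with -7.06. The amylase features Amy2a2 and Amy2a4, outside the list and with r of 0.841 and 0.836, were chosen after their values were seen and differed by -8.81 and -8.78. The other 102 lower features were neither in the list nor following it. This also held for all 320 higher features, but the rule largely fixed that, since the acinar mean was highest in intact spleens 1 and 2. It is therefore no check on the higher features. Pdia2, a disulfide isomerase abundant in pancreas, had the second smallest p of all features, at 6.95, 5.82 and 5.82 in intact spleens 1 to 3 and 3.89, 4.71 and 3.96 in day 1 spleens 1 to 3, a difference of -2.01 ± 0.35, and an r of 0.735 with the acinar mean. With the acinar mean of each array as a covariate, the median differences were 0.90 for glucocorticoid-induced genes, 0.49 for acute phase genes, 1.01 for red pulp macrophage genes, -0.51 and -0.63 for the G1/S and G2/M genes and -0.49 for erythroid genes, with 5, 2, 0, 0, 0 and 0 members called. Genes of pancreatic islets, adipose tissue and hepatocytes, which could enter a dissected spleen sample as well, had medians of -0.09, -0.11 and -0.06 over 11, 13 and 17 genes, with 0 called in each.

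**Figure D4:**
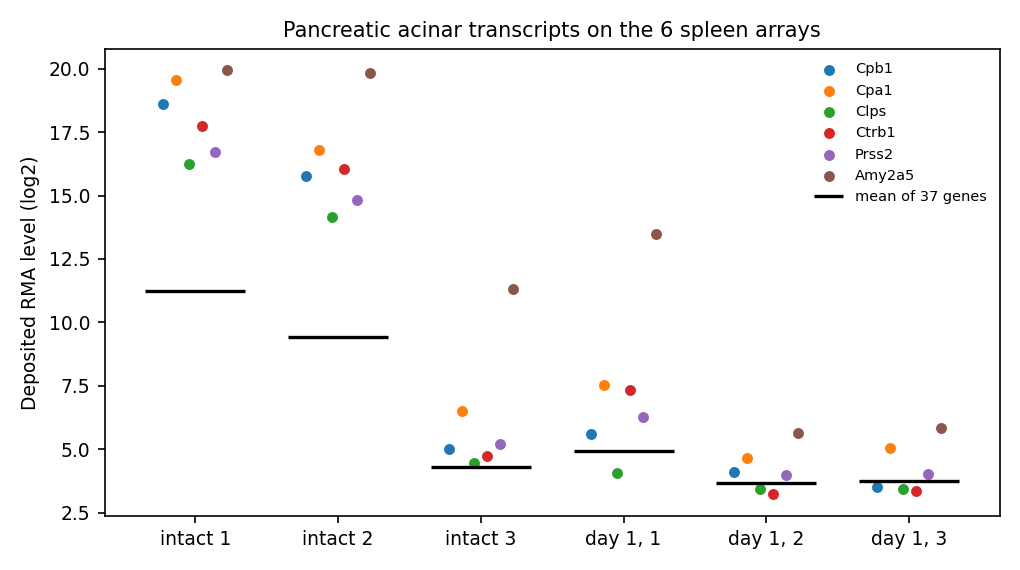
Log2 levels of 6 acinar genes (coloured points) and the mean of 37 acinar genes (black bars) on the 6 arrays. Intact spleens 1 and 2 had means of 11.2 and 9.41, and the other 4 spleens lay between 3.68 and 4.94.

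Intact spleen 3, which had little acinar RNA, served as a control of its own. Against it alone 163 features were called higher and 96 lower. Of the 320 features called higher against all of intact spleens 1 to 3, 74 were called against intact spleen 3 alone, and of the 102 lower features outside the acinar rule 17 were. Single arrays weighed on the counts. Day 1 spleen 2 was the highest day 1 array in 248 of the 320 and the lowest in 86 of the 140. Without it the counts were 209 higher and 98 lower, of which 127 and 68 were among the 320 and the 140. Without intact spleen 3 the counts were 472 and 212, and 36 features passed the adjusted test, of which 25 were genes of the acinar list, 8 followed its mean and the others were Reg3b, Nupr1 and Pdia2. Without day 1 spleen 3 they were 477 and 225. Against all 6 intact spleens as 1 group 431 features were higher and 116 lower, and 223 and 40 of these were among the 320 and the 140. With that control set the medians of further lists changed sign, to -0.13 for immediate early genes, -0.06 for chemokine and receptor genes, -0.51 for B cell genes, 0.06 for mRNA processing genes and 0.27 for mesothelial genes.

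**Figure D5:**
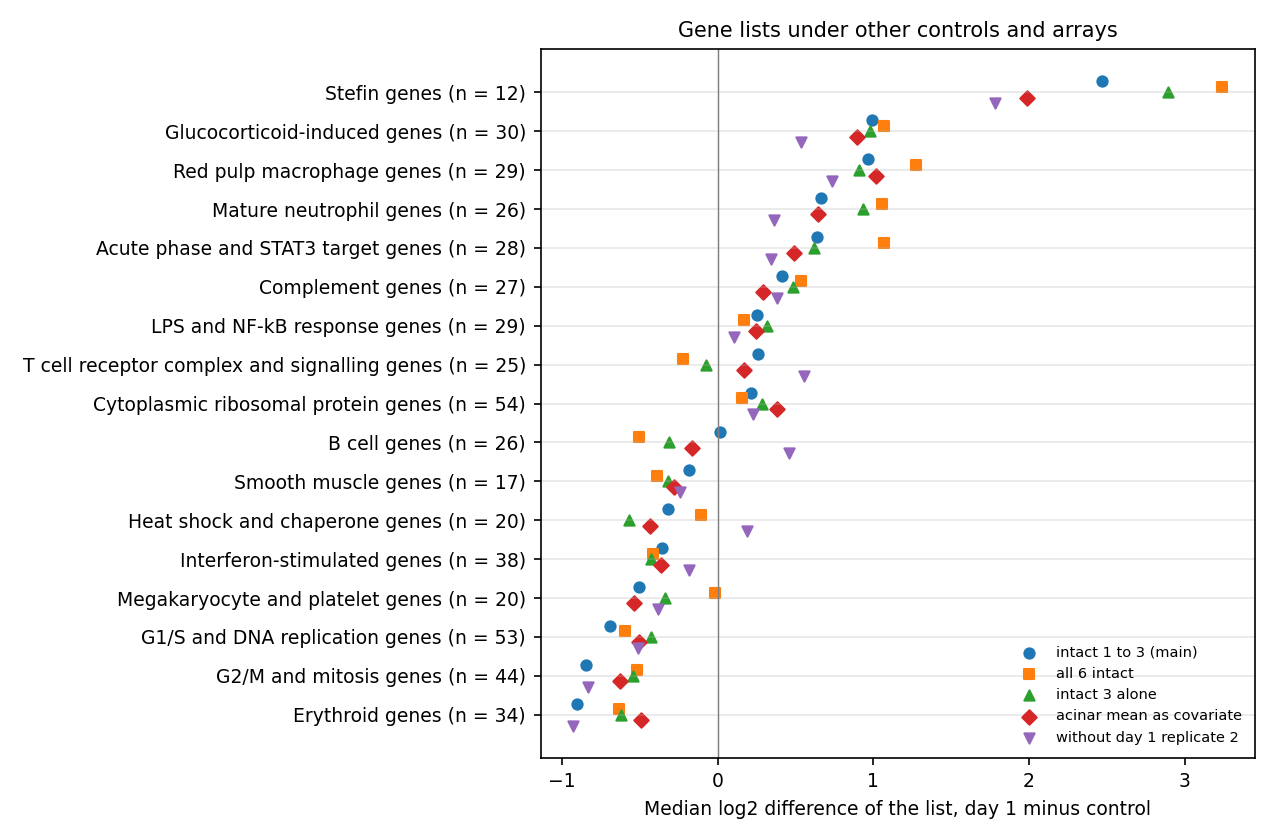
Median log2 difference of 17 gene lists on day 1 against intact spleens 1 to 3 (blue circles), all 6 intact spleens (orange squares), intact spleen 3 alone (green triangles), with the acinar mean as a covariate (red diamonds) and without day 1 spleen 2 (purple triangles). The stefin, glucocorticoid, macrophage and acute phase medians lie above 0 and the cell cycle and erythroid medians below 0 in each of the 5, whereas the B cell median lies between -0.51 and 0.46.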

How the data were processed

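Total RNA of frozen spleens was isolated with QIAzol and RNeasy columns and hybridised to Clariom S mouse arrays, 1 array per spleen. The log2 values deposited by the authors came from the Transcriptome Analysis Console with RMA, which corrects the background, normalizes quantiles across arrays and combines the probes of a feature, so these steps could not be varied. Their range was 1.79 to 19.93, and this upper end was met by 37 features on at least 1 of the 6 arrays and by 25 on all 6. A difference there is a lower bound. The sources used here do not say if a further transformation of the scale took place, which would change folds. Arrays have no depth, and the precision is limited by how few there were.

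Of 28846 features, 6640 array controls were removed, and no filter on low levels was applied to the 22206 tested. Symbols came from the platform's annotation, in which 19572 features carry 1 symbol. The feature with the highest mean was used for each of 55 genes with several. In limma 3.58.1 (R 4.3.3) all 15 arrays were fitted in 5 groups, intact spleens 1 to 3, intact spleens 4 to 6 and days 1, 3 and 7, with the contrast of day 1 minus intact spleens 1 to 3 and Benjamini-Hochberg adjustment over 22206 features. Standard errors are limma's. A gene is called where its fold is at least 2 and its unadjusted p under 0.05. The 50 gene lists come from general knowledge, 5 of them from the genes and markers that the study names, and were described by counts and medians without a test.

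Genes named are the 12 largest positive and negative differences among features with 1 symbol, an unadjusted p under 0.05, no overlap between the 6 arrays and no acinar flag, the 6 largest negative differences of acinar genes and the 4 largest of features that follow them, the 4 members with the smallest p of each list, genes and markers that the study names, and the 5 smallest p values of all features. Not every gene that met these rules is named. Members and lists were chosen with earlier results of these data known. Alternatives covered the control set, the arrays fitted, the replicate number as a block, the normalization, the prior, a filter on dim features, the acinar mean as a covariate, the thresholds and leaving out each array. The steps were tested on simulated data. For the fit, these had independent noise in each feature, with no acinar RNA in single spleens and no deviating array. They therefore do not show how the fit handles such arrays. The study's staining, flow cytometry and RT-PCR were not used here.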

Additional observations from a re-analysis of the deposited data

How the results depend on the processing

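The adjusted test gave 0 features in the comparison as reported and in all alternatives except 1 feature against intact spleen 3 alone and 36 without intact spleen 3. Leaving out arrays, the number of calls at an adjusted p under 0.05 ran from 0 to 36, the number called higher from 163 to 477 (209 to 477 for single arrays) and the number called lower from 96 to 225 (98 to 225 for single arrays), against 320 and 140. With the acinar mean as a covariate 138 were higher and 61 lower, against intact spleen 3 alone 163 and 96, and with the fold threshold at 1.5 in place of 2 they were 891 and 490. A fit of the 6 arrays alone gave 339 higher and 261 lower features, and the replicate number as a block on the 6 arrays 332 and 254. A further quantile normalization gave 252 and 182. The share of higher calls was then 56.5%, 56.7% and 58.1%, against 69.6% as reported. Spleens with the same number did not deviate together (r of -0.064, -0.016 and -0.0046), and the numbers were not taken as pairs. The labels do not say whether such spleens were processed together, and these values of r cannot show it.

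The median differences of the glucocorticoid, acute phase, red pulp macrophage, G1/S, G2/M and erythroid lists kept their direction in all alternatives. The acute phase median was 1.07 against all 6 intact spleens. The erythroid median was -0.64 against all 6 intact spleens, -0.49 with the acinar covariate and -0.62 against intact spleen 3 alone, and ran from -1.07 to -0.62 when arrays were left out. The G2/M median was -0.52 against all 6 intact spleens and the G1/S median ran from -1.01 (without day 1 spleen 3) to -0.51 (without day 1 spleen 2) when single arrays were left out. With the acinar covariate, differences turned positive for Amy2a5 (0.15), Ctrb1 (0.92), Prss2 (0.054) and features without a symbol (0.24 and 0.30), as they are the covariate's own members or follow it. One of these was also at 0.24 against intact spleen 3 alone. Of the 1659 values recomputed under the alternatives, 1562 counted as the same. A count did so within a factor of 1.5, and a list median if it moved by at most the SD of its array medians. A single gene did so if it kept its direction and its side of an adjusted p of 0.05 from limma. Sign changes of list medians were counted only for the lists named first in this paragraph. Other medians that changed sign could count as the same, as that of B cell genes against all 6 intact spleens did. Few replicates and, for genes near the array median of about 4.8, low signal limit what could be seen.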

Other observations

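Several further groups of cells and mediators gave values that belong to no comparison above. Of 24 measured dendritic cell genes 13 were higher on day 1 and 11 lower, with a median of 0.11. Against all 6 intact spleens 5 were higher and 19 lower (median -0.23), and against intact spleen 3 alone 6 were higher and 18 lower (median -0.32), so its direction turned with the controls. Clec9a, a receptor for dead cells on cross-presenting dendritic cells, was at 6.37, 6.11 and 6.37 in intact spleens 1 to 3 and 5.52, 3.63 and 5.86 in day 1 spleens 1 to 3 (log2 level), a difference of -1.28 ± 0.52 (SE), and was called lower together with Xcr1, a marker of the same cells. A further called member, Klk1, is an acinar gene too. Of 23 genes of natural killer and cytotoxic cells 14 were lower with a median of -0.05, but Klrd1, which encodes the receptor CD94, was called higher with 1.16 ± 0.41. Its mean in intact spleens 4 to 6 was 6.66, above the 6.30 of day 1. Basophil and mast cell genes were lower in 11 of 18 cases (median -0.10), with Mcpt4 called lower and Kit called higher. Genes of marginal zone and B1 cells were higher in 11 of 16 cases (median 0.31, 0 called), those of germinal centres and plasma cells in 9 of 20 (median -0.01, 0 called), those of early B lymphopoiesis in 9 of 17 (median 0.04) and those of regulatory T cells in 7 of 11 (median 0.07). Called members were Il7r, Lef1 and Akap12 for early B lymphopoiesis, and Ctla4 for regulatory T cells, against 1.44% of all features. Il7r and Lef1 are the same features that were called among genes of naive T cells. Il7r also counts among the called glucocorticoid-induced genes, and Ctla4 among those of T cell receptor signalling, so these are not separate calls. Against all 6 intact spleens 1 gene of early B lymphopoiesis was called.

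Growth factors and cytokines that the spleen can release were higher in 19 of 30 cases (median 0.12). Il18, a cytokine of macrophages, was at 8.66, 9.50 and 9.88 in intact spleens 1 to 3 and 10.98, 10.14 and 11.03 in day 1 spleens 1 to 3, higher on every day 1 array, and was the called member with 1.36 ± 0.59. Tgfb3 and Il17a differed by 0.92 ± 0.32 and -0.84 ± 0.32, both at levels near or below the array median.

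One feature without a gene symbol was far lower on 1 array than on all others, with a log2 level of 3.01 in intact spleen 3 against 16.04 to 19.93 on the other 14 arrays. It is the feature that passed the adjusted test when intact spleens 1 and 2 were left out.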
